A study of Arabidopsis thaliana with 2 samples.

Results

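The genes described here are those that no Gene Ontology (GO) term reached. They were the 57 of 733 genes in the deposited stem table whose 3 GO description columns, for biological process, cellular component and molecular function, were all blank or held only dashes. The other 676 genes carried a term in at least 1 of the columns, so an analysis by GO term sees them and passes over these 57. By the words of the deposited gene descriptions the 57 genes fell into 14 non-coding RNAs, 9 proteins of unknown function, 9 proteins with another description, 7 pseudogenes, 6 transposable element genes, 6 members of the lipid-transfer protein superfamily, 4 UPF0540 proteins and 2 gene models without a locus tag. A further 67 listed genes carried only the names of the GO roots, which say nothing of function, and they were counted with the genes that have a term.

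RNA from the mature main stem of *Arabidopsis thaliana* was sequenced from 1 library of the *cep1* mutant and 1 library of the wild type (WT), to find transcripts that differ when the protease CEP1 is missing. Both genotypes were Col-0 plants, untreated, and the labels give a greenhouse at 20 °C and 25 days after flowering for both. The *cep1* mutant is a T-DNA insertion line, a single line without a complemented line in the data. The study's methods give another growth temperature. By the study's text, stems were staged by development, and *cep1* stems were taken later after bolting than WT stems. The labels count days from flowering, so these counts of days start at different points. The libraries held 22077141 (*cep1*) and 20962056 (WT) reads on genes, as recovered from the deposited values. The deposited table lists only genes that its authors marked as down-regulated in *cep1*, so a lower level in *cep1* is a property of 100% of the listed genes and not a finding, and only the size of the difference can vary.

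GO terms attach a gene product to a process, a compartment or an activity. A blank here means only that the deposited table gave the gene no term. It does not mean that nothing is recorded elsewhere, since RefSeq notes lipid binding for the lipid-transfer members. Plant genomes transcribe many loci of little known function, among them long non-coding RNAs, decayed gene copies, retrotransposon remnants and small protein families named only by sequence. Stems also make wall glycoproteins and small secreted lipid-binding proteins, large families whose members are often known by sequence only.

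The sequences below belong to the genes on which the results turn. The 4 UPF0540 genes lie within 75.4 kb of chromosome 1, a stretch that holds 22 protein-coding genes in RefSeq, and 3 of them had no read in *cep1*. Each of their coding sequences is a single exon of 447 to 462 bp, and over the 6 pairs the coding sequences were 89.3% to 95.5% identical (median 91.8%), with identical runs of up to 117 bases. The 250 bases before each gene start are shown from the RefSeq genome of TAIR10.1, read 5′ to 3′ on the strand of the gene, with capitals for ACGTG, the core of the abscisic acid response element, on either strand (CACGT on the other strand).
AT1G62000 (chr1:22913109-22913358, plus strand): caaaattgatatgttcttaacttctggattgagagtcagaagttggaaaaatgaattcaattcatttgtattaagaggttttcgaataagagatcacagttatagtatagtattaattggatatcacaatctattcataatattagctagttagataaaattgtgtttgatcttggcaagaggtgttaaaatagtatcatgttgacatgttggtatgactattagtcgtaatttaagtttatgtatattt
AT1G62060 (chr1:22942301-22942550, minus strand): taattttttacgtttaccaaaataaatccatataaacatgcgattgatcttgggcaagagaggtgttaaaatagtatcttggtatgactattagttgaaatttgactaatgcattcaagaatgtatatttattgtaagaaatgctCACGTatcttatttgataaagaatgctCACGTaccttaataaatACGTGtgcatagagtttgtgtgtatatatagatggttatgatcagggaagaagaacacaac
AT1G62080 (chr1:22946950-22947199, minus strand): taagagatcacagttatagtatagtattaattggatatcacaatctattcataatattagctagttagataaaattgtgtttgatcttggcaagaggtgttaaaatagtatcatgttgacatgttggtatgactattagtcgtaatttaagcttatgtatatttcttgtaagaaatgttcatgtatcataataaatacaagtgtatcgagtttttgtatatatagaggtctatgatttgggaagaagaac
AT1G62220 (chr1:22987946-22988195, plus strand): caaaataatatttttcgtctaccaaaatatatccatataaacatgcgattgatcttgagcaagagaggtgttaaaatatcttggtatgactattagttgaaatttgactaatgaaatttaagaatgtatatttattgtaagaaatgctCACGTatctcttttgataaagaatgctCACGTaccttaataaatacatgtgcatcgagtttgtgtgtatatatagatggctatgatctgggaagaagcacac
The windows form pairs. Those of AT1G62060 and AT1G62220 were 94.3% identical over 244 aligned bases and held 3 and 2 copies of ACGTG. Those of AT1G62000 and AT1G62080 shared a run of 151 bases, were 99.4% identical over 164 aligned bases and held no copy. RefSeq starts AT1G62000 at 22913359, upstream of the start at 22913441 in the deposited table. Its window therefore ends before the stretch in which the other pair holds its copies, and that stretch was not searched for this gene. A run of 17 bases, ttggtatgactattagt, was common to all 4 windows. A match is a string of letters and not a binding site, and ACGTG stood in 20.8% of the same windows of all 37897 nuclear genes in RefSeq.

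Among the 6 lipid-transfer members, 3 windows held CATGCA on either strand (TGCATG on the other), the RY repeat known from seed gene promoters, against 8.84% of all nuclear genes. The windows of the pair with the fewest reads in *cep1* are shown, with that motif in capitals.
AT4G30880 (chr4:15034957-15035206, plus strand): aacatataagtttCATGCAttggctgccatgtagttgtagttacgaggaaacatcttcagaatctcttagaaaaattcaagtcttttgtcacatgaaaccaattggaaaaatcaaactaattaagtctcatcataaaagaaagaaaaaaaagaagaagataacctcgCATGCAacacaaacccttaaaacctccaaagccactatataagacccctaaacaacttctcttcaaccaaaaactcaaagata
AT5G38160 (chr5:15225517-15225766, plus strand): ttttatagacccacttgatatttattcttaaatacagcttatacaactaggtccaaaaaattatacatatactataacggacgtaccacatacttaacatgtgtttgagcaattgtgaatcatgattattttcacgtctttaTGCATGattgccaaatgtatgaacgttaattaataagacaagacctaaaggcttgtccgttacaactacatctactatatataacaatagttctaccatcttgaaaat
Over all 51 members with a RefSeq gene, CATGCA stood in 6 windows (11.8%) and ACGTG in 19 (37.3%), close to the 14.8% and 33.8% of all 714 listed genes with a RefSeq gene. CACGTG, the G-box, which contains ACGTG, stood in 5 members' windows (9.8%, against 12.2% of the listed genes). AAATATCT, an evening element string, stood in 2 (3.92%, against 3.78%).

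AT2G15555 had the lowest ratio of *cep1* to WT reads among the non-coding RNAs, where AT4G15242, at 0 reads in *cep1*, has only a bound. Its first 150 bases are shown, read 5′ to 3′ on the strand of the gene, because the gene has no protein by which it could be known. The genes of the pair of plastid tRNAs are shown whole, since each is shorter than the cDNA fragments of 150 to 200 bp that the library protocol selected.
AT2G15555 (chr2:6786827-6786976, minus strand): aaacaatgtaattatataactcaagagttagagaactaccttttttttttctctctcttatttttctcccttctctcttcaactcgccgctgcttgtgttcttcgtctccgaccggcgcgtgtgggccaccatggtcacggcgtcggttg
ATCG00370, tRNA-Ser (TAIR10.1 plastid genome, 44827 to 44913, plus strand): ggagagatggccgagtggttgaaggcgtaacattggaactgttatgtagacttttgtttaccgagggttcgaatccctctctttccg
ATCG00390, tRNA-Thr (TAIR10.1 plastid genome, 46213 to 46285, minus strand): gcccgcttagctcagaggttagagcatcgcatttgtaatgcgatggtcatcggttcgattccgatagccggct

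*CEP1* itself (AT5G50260), which encodes a papain-like cysteine protease, had 15 *cep1* and 1269 WT reads, 0.441 and 39.3 FPKM (reads scaled to gene length and library total). Its log2 ratio of *cep1* to WT was -6.24 (exact 95% interval -7.08 to -5.51), so the labels and the data go the same way. Where a pair of values is given, *cep1* comes first. All log2 ratios here are of raw reads divided by the scale factors that the authors used, 20.3 for *cep1* and 22.8 for the WT. Their intervals cover counting error only, because each genotype has a single library, the ratios carry no replicate check, and p-values were not computed. Scaling to the library totals instead would add -0.24 to every log2 ratio. In whole stems, fewer cells of a type and less RNA per cell cannot be told apart.

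The 57 genes without a GO term differed by more than the table they came from. Of them, 30 (52.6%) were at least 16-fold lower in *cep1* (a log2 ratio of -4 or below), against 20.9% of all 733 listed genes. No read in *cep1* was counted for 10 of them (17.5%), against 8.32% of all listed genes, and 16 (28.1%) had at most 3 reads, against 12.1%. The median log2 ratio was -4.05 over the 57 genes, -1.86 over all listed genes and -1.81 over the 676 genes with a term, where genes at 0 reads in *cep1* were set to 3 reads. These shares describe the pair of libraries, and genes are not replicates.

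**Figure D1:**
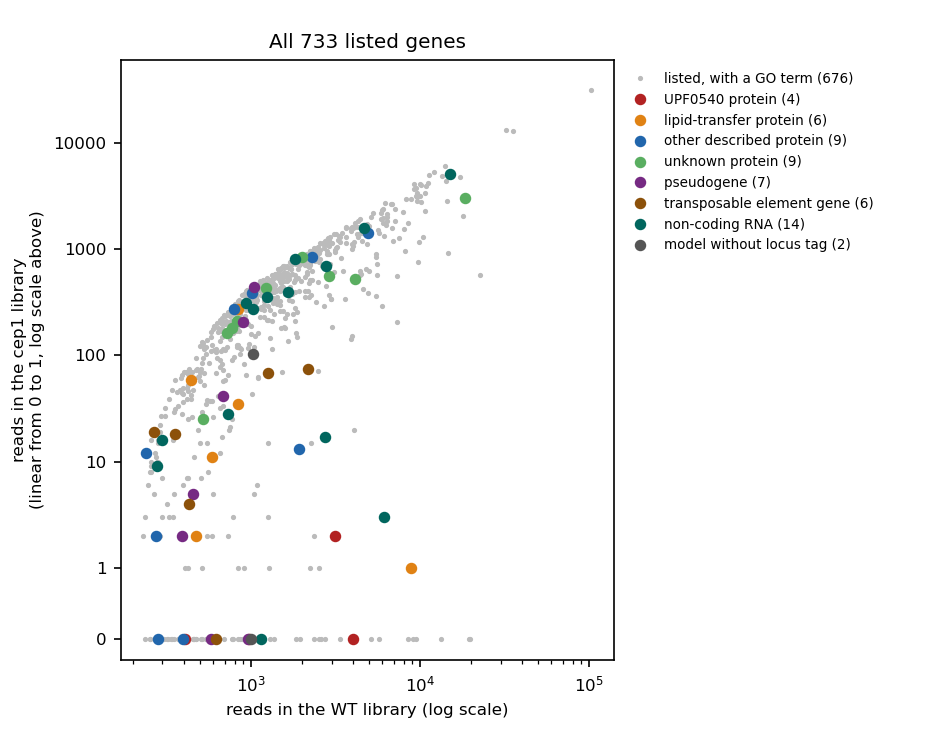
Reads of all 733 listed genes in the WT library (horizontal, log scale) and in the *cep1* library (vertical, linear from 0 to 1 and log scale above), 1 point per gene. Grey points are the 676 genes with a GO term and coloured points the 57 genes without one, by class. The upper edge of the cloud falls steeply at low WT reads, and 10 coloured points lie at 0 on the vertical axis.

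The table sets a different bar at different depths, as the plot of all listed genes shows. Among listed genes with under 400 WT reads the highest log2 ratio was -2.42, whereas among those with 1000 or more it was -1.0, so a gene with few reads had to differ more to be listed. Split by WT reads, a split chosen after the data had been seen, 8 of 9 genes without a term (88.9%) and 67.1% of all listed genes were at least 16-fold lower below 400 reads. From 400 to under 1000 reads the counts were 13 of 22 (59.1%) against 26.5%, and from 1000 reads upward 9 of 26 (34.6%) against 10.8%. The genes without a term had the larger share in each of the 3 bands. With at least 20 reads in both libraries, 31 of the 57 genes were left, of which 5 (16.1%) were at least 16-fold lower, against 22 of 598 listed genes (3.68%). Their median log2 ratio was then -1.85, against -1.61, so the medians lay closer together once genes with few reads in *cep1* were left out.

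**Figure D2:**
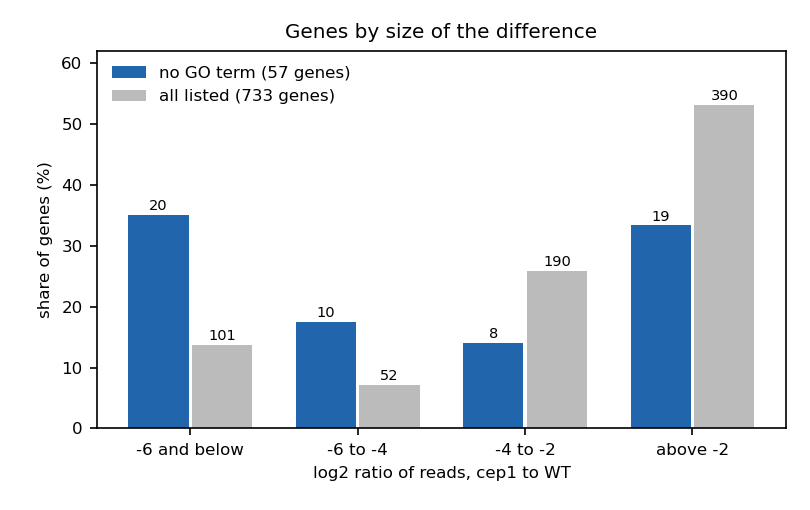
Share of genes (vertical, %) by log2 ratio of *cep1* to WT (horizontal, 4 ranges), for the 57 genes without a GO term (blue) and all 733 listed genes (grey). Numbers over the bars are counts of genes. The blue bars are highest at both ends, with 20 genes at -6 and below and 19 above -2, while the grey bars hold 101 and 390 genes there and are highest above -2.

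The genes without a term were most often found at the ends of the range. A log2 ratio of -6 or below was found for 20 of them (35.1%), and a ratio above -2 for 19 (33.3%), against 13.8% and 53.2% of all listed genes. Their WT levels were near those of the whole table. The median was 960 reads and 46.8 FPKM in the WT, against 1268 reads and 49.4 FPKM over all listed genes, and 35 reads and 1.93 FPKM in *cep1*, against 320 reads and 10.9 FPKM. Together they took 0.558% of the WT reads (Wilson 95% interval 0.5551% to 0.5614%) and 0.0901% of the *cep1* reads (0.08884% to 0.09134%), and 3 genes held 36.2% of their WT reads.

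Lists of marker genes were read beside these results. Of 17 genes that mark seeds, such as cruciferins, 2S albumins and oleosins, 15 were listed, 13 of them without a read in *cep1*, and the list summed to 139 *cep1* and 91668 WT reads. *EM1* and *EM6* were the unlisted ones, and the defining *CRA1*, *CRC* and *AT2S3* were at 0 reads in *cep1*. None of the 15 lacked a GO term. The 16 genes without a term that had at most 3 reads in *cep1* were picked by that count. Low reads of the seed list beside them therefore show no link, and its part in their difference was not tested. None of 9 xylem genes, among them *CESA4*, *CESA7*, *CESA8* and *LAC17*, was in the table, so the stem label could not be checked from genes that fell. The study reported these named genes as up-regulated in *cep1*, and a list of lowered genes could not hold them.

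**Figure D3:**
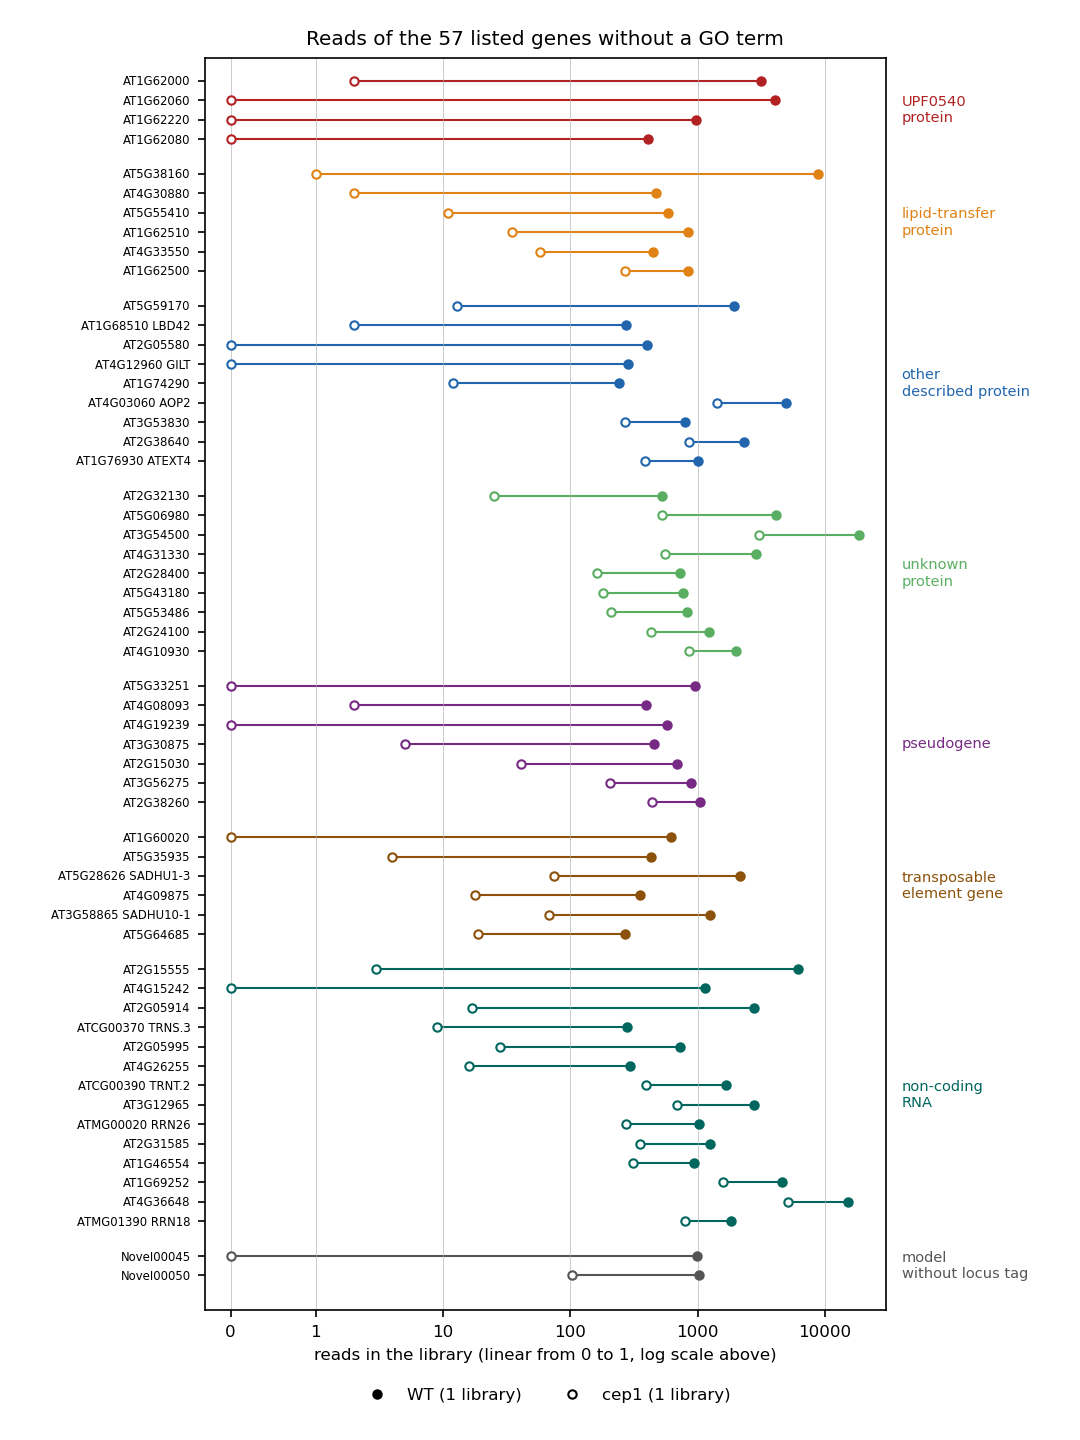
Reads of each of the 57 genes in the WT library (filled circles) and in the *cep1* library (open circles), on an axis that is linear from 0 to 1 and logarithmic above. Genes are grouped and coloured by class and ordered within a class by their log2 ratio. All 4 UPF0540 genes reach 2 reads or fewer in *cep1*, whereas among the proteins of unknown function the lowest *cep1* value is 25 reads.

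UPF0540 is the name of a protein family in UniProt that is defined by sequence alone and has no recorded function. The 4 listed genes of the family were the class with the largest differences. AT1G62060 had 0 *cep1* and 4045 WT reads (263.6 FPKM), at least 1204-fold lower against a floor of 3 reads (upper limit of the two-sided interval, as log2 ratio, -9.93), and AT1G62000 had 2 and 3157 reads (213.3 FPKM in the WT, log2 ratio -10.46, interval -13.51 to -8.61). AT1G62220 had 0 and 978 reads and AT1G62080 0 and 407 reads, at least 291-fold and 121-fold lower. Each member was thus read in the WT and close to unread in *cep1*. The identical runs in their coding sequences leave the split of reads between the copies uncertain. Their sum, which does not depend on how the counted reads were split, was 2 *cep1* and 8587 WT reads, a log2 ratio of -11.90 (interval -14.95 to -10.05). Whether reads that match several copies were counted at all was not checked. No UPF0540 gene in the table carried a GO term.

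Most genes of the stretch of chromosome 1 that holds them are not in the table and were not analysed here. Of the 35 RefSeq genes between the outer UPF0540 genes only 5 were listed, the 4 copies and AT1G62200, which had 579 *cep1* and 1399 WT reads. Just beyond AT1G62220, at a gap of 705 bp, AT1G62225 had 0 and 541 reads. The next listed gene, AT1G62250, had 558 and 1640 reads. Listed genes with 558 and 579 reads in *cep1* thus lay between and beside the unread copies.

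Lipid-transfer proteins are small secreted proteins with a conserved cysteine pattern, and their superfamily also holds the 2S albumins of seeds. RefSeq notes lipid binding for 6 of 6 members, although the deposited table gave them no term. AT5G38160 had 1 *cep1* and 8874 WT reads (0.103 and 957.8 FPKM), the lowest log2 ratio of all 57 genes at -12.95 (interval -18.26 to -10.47). Genes at 0 reads in *cep1* have only a bound, so their rank beside AT5G38160 is not known. AT4G30880 had 2 and 472 reads (-7.72, interval -10.77 to -5.86) and AT5G55410 11 and 586 reads (-5.57, interval -6.58 to -4.72). The other members kept more reads. AT1G62510 had 35 and 841 reads (-4.42), AT4G33550 58 and 444 (-2.77), and AT1G62500 270 and 836 (-1.47, interval -1.67 to -1.27).

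The last of these and AT1G62510 are neighbours, 2866 bp apart on opposite strands, and nevertheless differed by different amounts, with intervals that do not overlap (-4.95 to -3.94 for AT1G62510). AT5G38160 also has a listed neighbour of the same superfamily, AT5G38170, which lies 1429 bp downstream, carries a GO term and had 0 and 3893 reads. By the words of their descriptions, 4 listed genes of the superfamily carried a term, with a median log2 ratio of -5.86, beside -5.0 for the 6 without one. The listed 2S albumins also carried a term and had 0 reads in *cep1*, but their descriptions do not name the superfamily and they were not counted here. The lack of a term therefore did not set apart the more strongly lowered lipid-transfer genes.

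**Figure D4:**
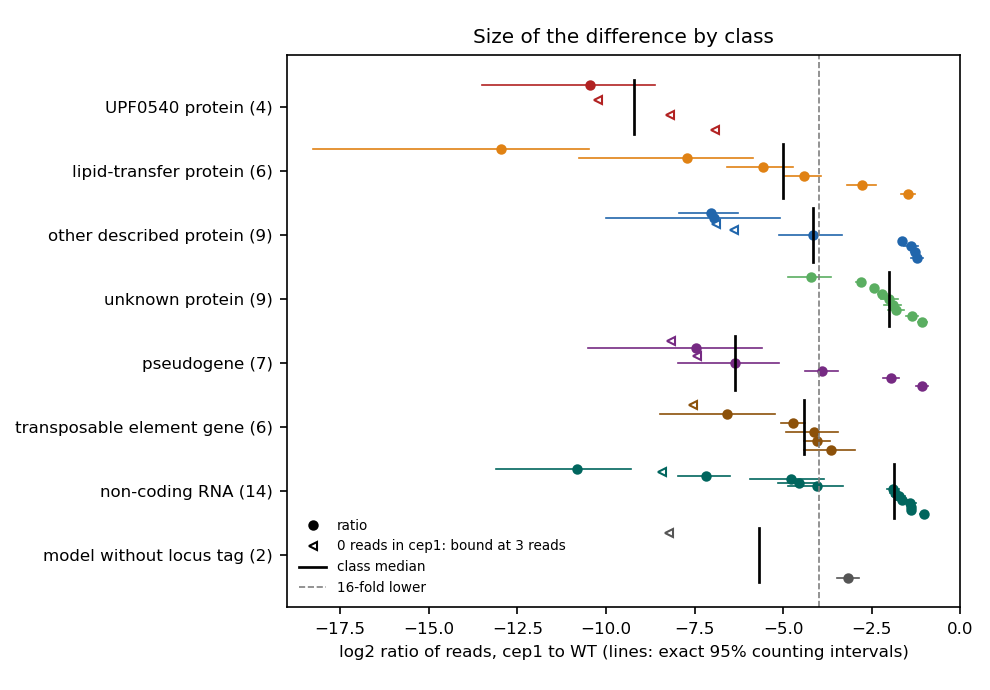
Log2 ratio of reads, *cep1* to WT (horizontal), of the 57 genes by class (vertical, with the number of genes). Circles are ratios with their exact 95% counting intervals as lines, open triangles are bounds for genes with 0 reads in *cep1*, black bars are class medians and the dashed line marks 16-fold. The UPF0540 genes lie left of the line, as do 4 of 6 lipid-transfer genes and 5 of 6 transposable element genes, while all but 1 of the 9 proteins of unknown function lie right of it.

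Transposable element genes are annotated remnants or copies of mobile DNA, which plants usually keep silent. All 6 in the table lacked a term, and 5 were at least 16-fold lower in *cep1*, with a median log2 ratio of -4.42. AT1G60020 had 0 *cep1* and 624 WT reads, at least 186-fold lower, spread over 4382 bp (6.79 FPKM in the WT). SADHU elements are short retrotransposons that make RNA without a protein, and both listed copies kept some reads: SADHU1-3 (AT5G28626) had 74 and 2163 reads (-4.71) and SADHU10-1 (AT3G58865) 68 and 1259 (-4.05). AT5G35935 had 4 and 433 reads (-6.59) and AT4G09875 had 18 and 355 (-4.14). AT5G64685 had the smallest difference of the class, 19 and 268 reads (-3.65, interval -4.41 to -2.98). Per length the SADHU copies stood apart in the WT, at 60.6 and 63.6 FPKM, while the other 4 lay between 3.18 and 6.99 FPKM.

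Pseudogenes are gene copies that no longer encode an intact protein. The 7 in the table had log2 ratios from -8.16, a bound, to -1.08, with a median of -6.35. AT5G33251, described as a copy of an unknown gene, had 0 and 960 reads and was at least 286-fold lower. AT4G19239 is a fragment of 261 bp described as a copy of the beta-galactosidase gene AT5G01080, and had 0 and 579 reads, which amounts to 105.8 FPKM in the WT and a difference of at least 172-fold. It ends 23 bp from AT4G19240 on the same strand, which had 0 and 843 reads. Both were thus unread in *cep1*, and at this distance reads of 1 transcript that spans both cannot be told apart from reads of each.

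The remaining pseudogenes kept reads in *cep1*. AT4G08093 had 2 and 392 (-7.45, interval -10.50 to -5.59), AT3G30875, a copy of a multidrug resistance gene, had 5 and 457 (-6.35), and AT2G15030 had 41 and 685 (-3.90). AT3G56275 had 206 and 894 reads (-1.95). AT2G38260, similar to a carboxyl transferase subunit, had 441 and 1043 reads and the smallest difference (-1.08, interval -1.24 to -0.92). Of the 57 genes it is 1 of 3 whose interval reaches the listing threshold of -1, together with AT4G10930 and ATMG01390.

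The non-coding RNAs were the most numerous class and split into a strongly and a weakly lowered part, with 6 of 14 genes at least 16-fold lower and a median of -1.88. AT2G15555, whose first bases are printed above, had 3 *cep1* and 6136 WT reads (0.127 and 272.8 FPKM), a log2 ratio of -10.83 (interval -13.11 to -9.29). AT4G15242 had 0 and 1142 reads and was at least 340-fold lower. AT2G05914 had 17 and 2757 reads (-7.18, interval -7.96 to -6.50). The first is thus among the 10 genes without a term that had the highest WT FPKM, and its RNA was close to absent from the *cep1* library.

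Overlaps limit what these counts mean, because the sources used here do not say that strand was kept. AT2G05914 is described as antisense to AT2G05915, and AT4G15242 overlaps the protein-coding AT4G15245 on the opposite strand. Of the 51 genes matched to RefSeq, 9 overlapped another gene, 8 of them on the opposite strand, and reads from such a pair cannot be told apart. Besides these RNAs they were AT1G62510, AT1G68510, AT2G15030, AT3G54500, AT3G58865 and AT5G64685, and AT5G06980 on the same strand. No gene without a term overlapped another listed gene. AT2G15555 overlapped none in RefSeq.

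AT2G05995 (28 and 731 reads, -4.54) and AT4G26255 (16 and 296 reads, -4.05) were also at least 16-fold lower. The other nuclear RNAs were lowered much less, and their WT levels ran from 46.8 FPKM (AT1G46554) to 359.4 FPKM (AT1G69252). AT4G36648 had 5117 and 15075 reads (110.1 and 341.6 FPKM, -1.39), the most reads in *cep1* of all 57 genes. AT1G69252 had 1586 and 4641 reads (116.6 and 359.4 FPKM, -1.39), and AT3G12965 had 686 and 2770 (83.1 and 353.3 FPKM, -1.85). AT2G31585 and AT1G46554 had 353 and 311 reads in *cep1*, with ratios of -1.65 and -1.42. AT2G15555 with 272.8 FPKM and AT1G69252 with 359.4 FPKM in the WT thus lay at opposite ends of the nuclear RNAs by log2 ratio. Whether abundance per length and size of the difference run together was not tested.

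The organelle RNAs form the rest of this class. The plastid tRNA-Thr gene ATCG00390 had 397 and 1663 reads and the highest WT level per length of the 57 genes, 1087 FPKM (246.3 in *cep1*, -1.90). The tRNA-Ser gene ATCG00370 had 9 and 278 reads (-4.79, interval -5.93 to -3.84). Between them lies *rps4* (ATCG00380), a ribosomal protein gene that carries a term, with 71 and 2498 reads (-4.97), at gaps of 309 bp from the tRNA-Ser gene and 384 bp from the tRNA-Thr gene. tRNA-Ser and *rps4* were thus lowered by a similar amount and tRNA-Thr by less, while the 13 listed plastid genes had a median of -1.78. Both tRNA genes are shorter than the selected fragments, so reads counted on them can come from longer transcripts, and FPKM over so short a length is large for few reads. The mitochondrial ribosomal RNAs RRN26 (ATMG00020) and RRN18 (ATMG01390) had 273 and 1023 reads (-1.74) and 802 and 1823 reads (-1.02, interval -1.14 to -0.90), the latter being the smallest difference of all 57 genes.

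A pair of gene models had no locus tag. Novel00045 (chr4:10268188-10269153, plus strand) had 0 *cep1* and 999 WT reads (73.1 FPKM), at least 297-fold lower, and overlaps the RefSeq transcript AT4G03005 on the same strand and the long non-coding RNA AT4G06835 on the other. Novel00050 (chr4:9482993-9483810, minus strand) had 103 and 1035 reads (-3.17, interval -3.47 to -2.87). It overlaps AT4G16857, annotated in RefSeq as a disease resistance gene of the TIR-NBS-LRR class, and the deposited description names AT4G16950. The only other listed model without a tag carried a term and had a log2 ratio of -3.99. Both positions are therefore annotated in RefSeq, although the table gave them no name.

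Proteins of unknown function were lowered least among the protein classes, with a median of -2.0 and 1 of 9 genes at least 16-fold lower. That was AT2G32130, with a DUF641 domain, at 25 and 522 reads (-4.22, interval -4.86 to -3.64). AT4G31330 and AT5G43180, which share the DUF599 domain, had 560 and 2880 reads (-2.20) and 182 and 768 reads (-1.91). AT2G28400, with a DUF584 domain, had 162 and 726 reads (-2.0). The genes AT5G53486 and AT2G24100 had log2 ratios of -1.82 and -1.36, and AT4G10930 had 850 and 2000 reads (-1.07, interval -1.19 to -0.95). A further 88 listed genes of unknown function carried a term, with a median of -1.74 and 10 of them (11.4%) at least 16-fold lower.

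AT3G54500 and AT5G06980 stand in the table as unknown proteins but are *LNK2* and *LNK4* in RefSeq, members of a family of coactivators that link light to the circadian clock and act in the morning. *LNK2* had 3035 and 18445 reads (55.95 and 358.1 FPKM, -2.44, interval -2.50 to -2.38), the most WT reads of all 57 genes. *LNK4* had 526 and 4140 reads (-2.81, interval -2.95 to -2.68). Of the 4 genes of the family 3 were listed, and *LNK3* (AT3G12320), the one with a term, had 899 and 5460 reads (-2.44). The 3 ratios thus lay between -2.81 and -2.44. The hour of harvest is not given in the sources used here, so time of day and genotype cannot be told apart.

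The 9 proteins with another description included wall proteins. Extensins and other proline- or glycine-rich proteins build the network of glycoproteins in plant cell walls. AT5G59170, a proline-rich extensin-like protein, had 13 and 1920 reads (0.519 and 80.7 FPKM, -7.04, interval -7.95 to -6.27), and the glycine-rich AT2G05580 had 0 and 399, at least 119-fold lower. Extensin 4 (AT1G76930), which RefSeq ties to stem thickness when overexpressed, had 384 and 1009 reads and differed little (-1.23, interval -1.40 to -1.06). Among listed genes with a term and an extensin description the lowest was AT2G27380 with 0 and 13365 reads. Its bound lay below the ratio or bound of each of these. The highest was AT3G26960 with 603 and 2161.

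The other described proteins were enzymes and regulators. LBD42 (AT1G68510), a LOB domain transcription factor, had 2 and 276 reads (-6.94, interval -10.00 to -5.08), and GILT (AT4G12960), a thiol reductase of the lysosomal type, had 0 and 282, at least 83.9-fold lower. The alpha/beta-hydrolase AT1G74290 had 12 and 240 reads (-4.16), the fewest WT reads of the 57 genes. The glucosinolate gene AOP2 (AT4G03060), which encodes a dioxygenase that forms alkenyl side chains and which RefSeq lists for this reference genome as a transcribed pseudogene, had 1418 and 4948 reads (50.7 and 186.3 FPKM, -1.64, interval -1.73 to -1.55). Its listed neighbour AT4G03050 had 333 and 1089 reads (-1.55). AT3G53830, with RCC1 repeats, and AT2G38640, related to LURP-one, had ratios of -1.39 and -1.28.

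The classes described as proteins and the other classes differed little in how often the difference was large. This split follows the deposited descriptions. The models without a locus tag thus count among the others, and AOP2, a transcribed pseudogene in RefSeq, among the proteins. Of 28 genes in the protein-coding classes 14 (50%) were at least 16-fold lower, with a median of -3.49, and of the 29 others 16 (55.2%), with a median of -4.05. The UPF0540 and lipid-transfer genes made up 8 of the first 14. On chromosomes 1 to 5 the members were 12 of 212, 11 of 107, 6 of 126, 14 of 105 and 10 of 167 listed genes. They were 2 of 13 listed genes in the plastid and 2 of 3 in the mitochondrion. Of the 57 genes, 20 (35.1%) had another listed gene within 20 kb, against 31.4% of all listed genes.

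Lack of a GO term did not mean that a gene was unnamed elsewhere. In the KEGG text of the table, 15 of the 57 genes had a blank, 12 of which were non-coding RNAs, 18 read hypothetical protein and 24 held another text. RefSeq matched 51 of the 57 by locus tag, of which 27 were protein-coding, 14 pseudogenes or transcribed pseudogenes and 10 non-coding RNAs, and 24 had the same ends as in the table. The 6 without a match were both plastid tRNAs, both mitochondrial rRNAs and the models without a tag. A single exon was annotated for 21 of the 51 genes.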

How the data were processed

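The authors mapped reads with TopHat and compared the libraries with DEGseq. The submitters' processing notes name TopHat2 2.0.12, Bowtie2 2.2.3 and HTSeq 0.6.1, and the genome build is not given in the sources used here. The deposited table holds raw read counts per gene, FPKM values that the authors scaled to gene length and library total, and normalized read counts, a signal that the authors made by dividing counts by 1 factor per library. Deposited fold changes and p-values were not used. FPKM matched count, length and total to within 1% for 47 of 57 genes in the WT and for 39 of 47 in *cep1*, with deviations of up to 1.5 times.

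Log2 ratios were computed from counts with exact (Clopper-Pearson) 95% intervals. A count of 0 was set to a floor of 3 reads, the one-sided 95% limit of a count of 0, and its fold is a lower bound against that floor. The two-sided exact interval of the other ratios allows slightly more reads at a count of 0. Shares of reads have Wilson intervals. All intervals cover counting error only. A gene was counted as at least 16-fold lower at a log2 ratio of -4 or below. Without residual degrees of freedom no test was made across samples. Locus tags were matched to RefSeq on TAIR10.1, where 714 of the 733 listed genes were found by tag. All 714 overlapped their RefSeq gene and 120 had the same ends, so upstream windows start from RefSeq positions. Values are given for genes at 0 reads, for each UPF0540, lipid-transfer and tagless gene, for the extremes of each class and for the 10 highest WT FPKM, and the others were added after their values were seen. The members and lists were chosen with earlier results of these data known. Alternatives were scaling to library totals, FPKM with pseudocounts of 1 and 0.1, a minimum of 20 reads, and wider or narrower gene sets. Scripts were tested on simulated data (Python 3.11.15, numpy 2.4.6, pandas 2.3.3, scipy 1.17.1, biopython 1.88, matplotlib 3.10.9).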

Additional observations from a re-analysis of the deposited data

How the results depend on the processing

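No member changed direction under another scaling or on FPKM values. Only lowered genes are listed and scaling to library totals adds -0.24, so a change of direction was hardly possible. Scaling to library totals left 36 of 57 ratios within their counting intervals and moved 21, and FPKM with a pseudocount of 1 left 18 and moved 39, of which 26 towards 0 and 13 away from it. With that pseudocount the median became -2.96, the count at least 16-fold lower 19 (33.3%, against 13.1% of all listed genes) and the ratio of *CEP1* -4.81. Requiring 20 reads in each library gave a median of -1.85 and a count of 5. Adding genes with only root terms gave a median of -2.41 and 19 genes at 0 reads. Counting up to 3 reads as unread gave 16, and the protein-coding classes alone held 14 of the 30 strongly lowered genes. By WT reads the 30 divided into 8, 13 and 9, a split chosen after the data were seen. At the upper limit of the interval 22 genes (38.6%, against 17.1%) remained at least 16-fold lower. Without *LNK2*, the gene with the most WT reads, the shares of reads were 0.0763% in *cep1* and 0.47% in the WT. No paired analysis was possible because each genotype has 1 library, and for the same reason no library could be left out. Genes with under 400 WT reads limit how finely small differences can be seen, since the table lists them only when the difference is large.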
